A study of Caenorhabditis elegans with 2 samples.

Results

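The genes sls-2.1, sls-2.2, sls-2.4 and sls-2.8 encode SL2 spliced leader RNAs of Caenorhabditis elegans, and are described here in the binding regions of HPL-2. They are 4 of the 18 annotated genes named sls-2, in an annotation of 46926 genes. They were chosen by measured values, namely the signal and the rank of the pooled regions beside them. Those values are therefore given as a description, with no test. The other 14 sls-2 genes serve as context. HPL-2 binding had been measured by chromatin immunoprecipitation and sequencing (ChIP-seq) in 2 libraries, labelled biological replicates 1 and 3 of a single group. Both came from whole mixed-sex L1 larvae starved after bleaching. Every animal was of strain YL474, which carries lin-35(n745), unc-119(ed3) and the integrated array vrIs64. In that array the promoter of ges-1 drives an HPL-2 fusion with GFP and FLAG that ends in the HPL-2 3′ UTR, and unc-119(+) is the marker. The ges-1 promoter is known as an intestinal one, while the chromatin came from whole animals. The labels name hpl-2 as the antibody's target in one field and the eGFP fusion in another, so which was precipitated is not known here. No wild-type, untagged or input library was analysed here, and peak lists give no expression by which the tissue could be checked.

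Trans-splicing joins a short leader from a spliced leader RNA to the 5′ end of another transcript. In C. elegans the SL2 leaders are known for capping the messages of downstream genes in operons, which separates a polycistronic transcript into single messages. Spliced leader RNAs are small, are made by RNA polymerase II and, like spliceosomal snRNAs, carry an Sm-binding site. Their promoters, like those of snRNA genes, hold a proximal sequence element upstream of the start, which the SNAPc complex binds. HPL-2 is a homologue of heterochromatin protein HP1, a family known for binding histone H3 methylated at lysine 9. The gene lin-35 encodes the worm homologue of the retinoblastoma protein.

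The DNA under the strongest regions carried a common upstream block and then the leader. The block was found as the 30 bases, within 120 bases upstream of the annotated 5′ end, that were most alike over all 18 sls-2 genes. It spans positions −63 to −34 from the 5′ end, and 4 of its positions held the same base in 17 of 18 genes. These stretches are shown because the strongest summits of these genes fell inside them in every list. They run from the block to the end of the leader, from the RefSeq copy of WBcel235. Capitals mark the leader and, in the block, the shared bases that the gene has. The plus-strand positions are chrII:5844802-5844886 for sls-2.1, chrII:5543535-5543619 for sls-2.2 and chrIII:12250402-12250487 for sls-2.8.
sls-2.1: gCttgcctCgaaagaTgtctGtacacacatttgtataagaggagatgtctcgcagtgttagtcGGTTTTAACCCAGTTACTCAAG
sls-2.2: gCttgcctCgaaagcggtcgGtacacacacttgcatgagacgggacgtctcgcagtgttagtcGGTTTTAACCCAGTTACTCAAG
sls-2.8: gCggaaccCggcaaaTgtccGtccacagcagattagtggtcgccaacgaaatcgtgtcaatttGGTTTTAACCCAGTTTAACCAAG

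The leaders of sls-2.1 and sls-2.2 have the same 22 bases, while that of sls-2.8 has 23. For contrast, 2 of the other genes are shown by block alone. The gene sls-2.3 shares the leader of sls-2.1 and had no pooled summit within 250 bp, and sls-2.16 had the highest signal among the other 14. The blocks lie at chrII:5544307-5544336 on the minus strand and chrIII:7141328-7141357 on the plus strand.
sls-2.3: gCttgcctCgaaaaaTgtctGaacacaaaa
sls-2.16: tCggaaccCgcgataTgtcgGgggcgactg

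The deposited lists give 30000 candidate regions for the pooled libraries and for each library, and a thresholded list of 857 regions that passed an irreproducible discovery rate (IDR) analysis. The thresholded list is the 857 pooled candidates of highest signal, which is 2.86% of them. The signal is the authors' own enrichment value for a region. Its scale differs between lists, so regions are compared across lists by rank, where rank 1 is the highest signal. In the pooled list the signal ran from 7.88 to 253 with a median of 11.4, and the threshold fell at 37.9. The median was 9.66 in replicate 1 and 3.53 in replicate 3. The depth of either library is unknown, because a region list carries no read counts. With 1 group, 2 libraries and no control analysed, there is no contrast to test. The pooled list was made from the reads of both libraries, so its values and theirs are not independent.

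All 4 genes had a thresholded region within 250 bp. For comparison, 3 of the other 14 sls-2 genes did (21.4%), as did 6 of the 111 remaining snRNA genes (5.41%) and 323 of 26923 other noncoding genes (1.2%). The annotation files the sls-2 genes under snRNA, and they are left out of both later classes. The choice of the genes by these values fixed the count of 4, so nothing is read from the difference. The 4 genes had a median pooled rank of 21 and a median pooled signal of 163, against 3749 and 20.4 over the 12 other sls-2 genes that had a candidate at all.

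The gene sls-2.1 (WBGene00004833) is 110 bases long and lies at II:5844865-5844974 on the plus strand, outside protein-coding genes (coordinates are on ce11, which is WBcel235). Its upstream region, II:5844641-5845016, had a pooled signal of 181.6 at rank 11, with the summit 36 bp upstream of the 5′ end. In the libraries that region had a signal of 138.1 at rank 16 in replicate 1 and of 46.5 at rank 5 in replicate 3. The summits lay 40 bp and 36 bp upstream. All 3 lists thus placed it among their 16 strongest regions, with summits within 4 bp of each other. The nearest protein-coding 5′ end, that of ZK1248.17, was 712 bp from the pooled summit.

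The gene sls-2.2 (WBGene00004834), also 110 bases long, lies at II:5543598-5543707 on the plus strand. Its upstream region had a pooled signal of 181.0 at rank 13, a signal of 142.4 at rank 13 in replicate 1 and one of 41.1 at rank 11 in replicate 3. The ranks were close together, but the summits were the most scattered of the 4 genes. They lay 38 bp upstream in the pooled list, 32 bp in replicate 1 and 56 bp in replicate 3, a spread of 24 bp. The pooled region, II:5543505-5543610, is only 106 bp wide, whereas the usual width in that list is 376 bp and 37 of 30000 regions are narrower. The nearest protein-coding 5′ end was that of ins-13, an insulin-like peptide gene, at 1304 bp.

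The gene sls-2.4 (WBGene00004836), of 110 bases, lies at I:4172206-4172315 on the plus strand. The region at I:4171997-4172372 had a pooled signal of 144.75 at rank 29. Its signal was 102.8 at rank 37 in replicate 1 and 39.3 at rank 18 in replicate 3. The summits lay 21, 18 and 27 bp upstream in the pooled list, replicate 1 and replicate 3. The protein-coding gene egg-5, which acts in the oocyte-to-embryo transition, had the nearest 5′ end, at 596 bp.

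The gene sls-2.8 (WBGene00004840), of 111 bases, lies at III:12250465-12250575 on the plus strand and was the weakest of the 4. Its upstream region, III:12250252-12250627, had a pooled signal of 105.6 at rank 59. The signal was 81.3 at rank 63 in replicate 1 and 26.0 at rank 59 in replicate 3. The summits lay 25, 25 and 22 bp upstream, the smallest spread of the 4 genes at 3 bp. It is also the gene with the nearest protein-coding 5′ end, that of Y75B8A.23, 220 bp from the pooled summit. Even this gene stood in the upper 0.197% of the pooled list, the upper 0.21% of replicate 1 and the upper 0.197% of replicate 3.

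**Figure D1:**
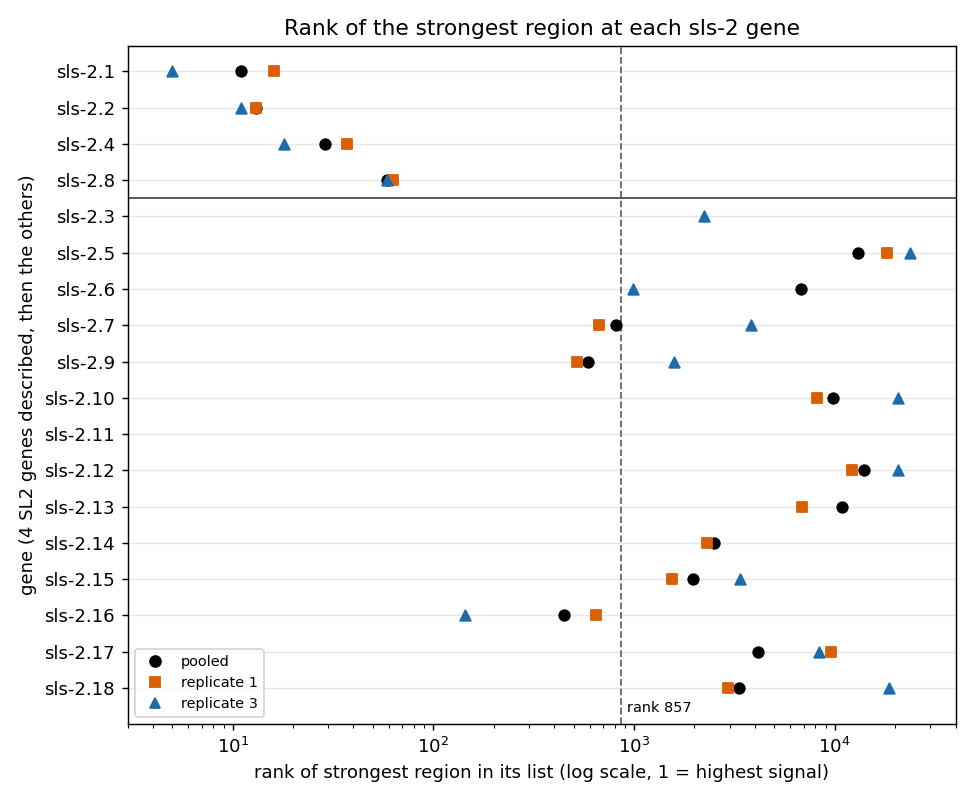
Rank of the strongest region within 250 bp of each sls-2 gene (log axis, rank 1 is the highest signal) in the pooled list (circles), replicate 1 (squares) and replicate 3 (triangles); a missing symbol means no region. The 4 genes described sit at ranks 5 to 63 in every list, left of all other sls-2 genes, and the dashed line is rank 857, the end of the thresholded list.

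The order of the 4 genes was nearly the same in each list. Genes sls-2.1 and sls-2.2 came first and second in the pooled list and replicate 3, and changed places in replicate 1, where their signals were 138.1 and 142.4. In the pooled list their signals, 181.6 and 181.0, were also nearly equal. Gene sls-2.4 came next and sls-2.8 last in all 3 lists. All 4 were among the 857 strongest regions of each library, as were 3 other sls-2 genes in replicate 1 and 1 in replicate 3. The same was true of 1.13% of other noncoding genes in replicate 1 and 1.06% in replicate 3. Every upstream region of the 4 had the highest −log10 q-value of its list, which is 3.23 in the pooled list, 3.33 in replicate 1 and 3.37 in replicate 3. That value does not order them, since 849 pooled regions, 1058 in replicate 1 and 1182 in replicate 3 share it.

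Over the 4 genes the strongest summit lay upstream of the RNA in every list. Its median position was −30.5 bp from the 5′ end in the pooled list, −28.5 bp in replicate 1 and −31.5 bp in replicate 3. The pooled summits of sls-2.1 and sls-2.2 fell inside the block printed above, and those of sls-2.4 and sls-2.8 fell between the block and the leader. None of these summits lay in any annotated gene. In the pooled list the strongest summit was at most 63 bp upstream at 4 of 4 genes, and at 0 of the 12 other sls-2 genes with a candidate. Among those 12 it was upstream at 2 and downstream of the 5′ end at 10, between −141 and +182 bp. In the libraries the strongest summit was at most 63 bp upstream at 4 of 4 genes in each. Among the other sls-2 genes with a candidate this was so at 2 of 11 in replicate 1, sls-2.5 and sls-2.9, and at 3 of 11 in replicate 3, sls-2.16, sls-2.17 and sls-2.18. Position within 250 bp was part of how regions were assigned to genes, so this is a description. The summit at sls-2.16, the strongest of the others, lay at +21 bp in the pooled list, +75 bp in replicate 1 and −50 bp in replicate 3.

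**Figure D2:**
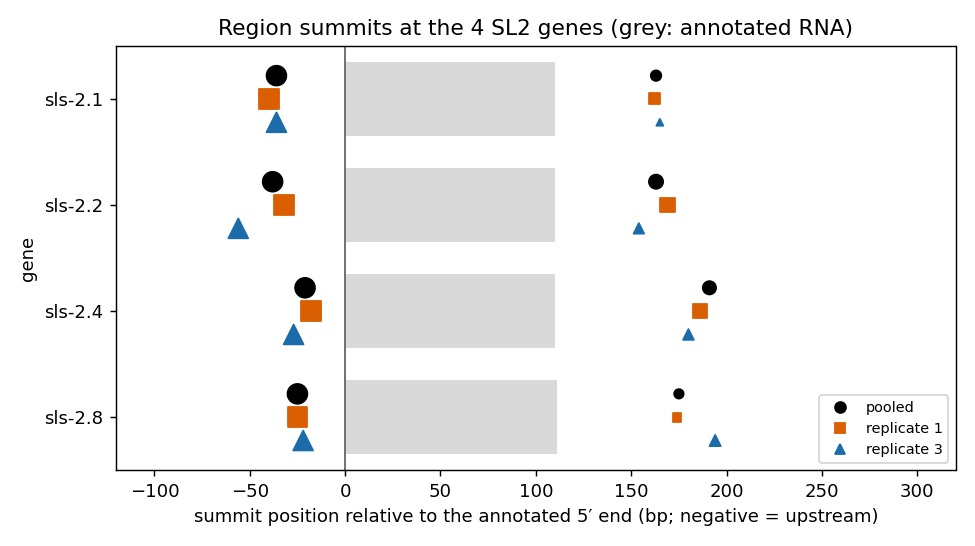
Positions of the region summits at the 4 SL2 genes, in bp from the annotated 5′ end (0), with the annotated RNA as a grey bar; symbol area is proportional to the signal relative to that gene's strongest region in the same list. The larger symbols stand between −56 and −18 bp and the smaller ones between +154 and +194 bp, in the pooled list (circles), replicate 1 (squares) and replicate 3 (triangles).

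Each of the 4 genes had one more, weaker region, called downstream here by the place of its summit. The region itself covered all or most of the RNA. Its summit lay 154 to 194 bp downstream of the 5′ end, past the end of the RNA, in all 3 lists. At sls-2.1 this region had a pooled signal of 50.8 at rank 438, with 42.3 at rank 383 in replicate 1 and 5.54 at rank 6029 in replicate 3. At sls-2.2 the pooled signal was 93.0 at rank 81, with 75.8 at rank 78 in replicate 1 and 11.6 at rank 770 in replicate 3. These downstream regions ranked far lower in replicate 3 than in replicate 1, whereas the upstream regions of the same genes did not. At sls-2.4 the pooled signal was 65.0 at rank 224, with 56.4 at rank 174 in replicate 1 and 11.6 at rank 782 in replicate 3. At sls-2.8 it was 23.8 at rank 2552, with 15.4 at rank 4562 in replicate 1 and 8.28 at rank 2051 in replicate 3, the opposite order of the libraries. The downstream regions of sls-2.1, sls-2.2 and sls-2.4 were thresholded, and that of sls-2.8 was not. The pooled summit of the downstream region of sls-2.8 lay 20 bp away from where Y75B8A.23 starts, nearer to that gene than to the RNA gene.

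The upstream region was the stronger at every gene and in every list, by a factor of 1.82 to 8.41. In the pooled list the factor was 3.58 at sls-2.1, 1.95 at sls-2.2, 2.23 at sls-2.4 and 4.43 at sls-2.8. In replicate 1 it was 3.26, 1.88, 1.82 and 5.27 for the genes in that order. In replicate 3 it was 8.41 at sls-2.1 and between 3.14 and 3.54 at the other genes. The summits of a gene's regions were 199 to 216 bp apart in all 12 cases. The closest neighbouring summits anywhere in each of the 3 lists were 199 bp apart, so the spacing at these genes is at the limit the lists show. Regions of the pooled width overlap at that spacing, and the regions of each gene do. Another summit within 250 bp was found at 14.5% of pooled candidates and at 221 of the 857 thresholded regions (25.8%). Among the other sls-2 genes, 2 of 14 had more than 1 pooled region within 250 bp. Whether 1 broad signal was divided into 2 regions was not tested, since the lists hold no read profile.

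**Figure D3:**
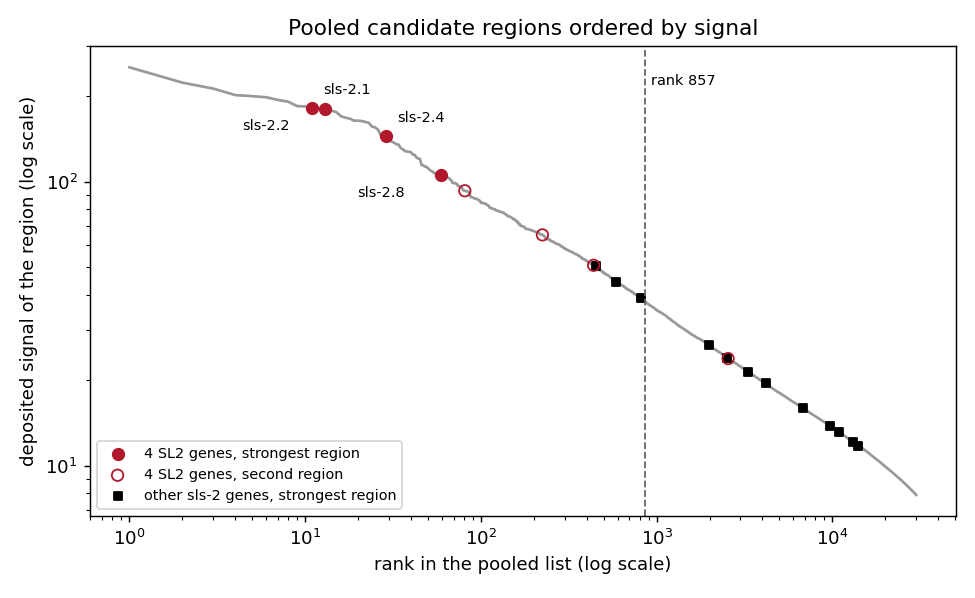
Signal of the 30000 pooled candidate regions against their rank (both axes log), as a grey line, with the regions at sls-2 genes marked. Filled circles are the strongest regions of the 4 SL2 genes, at ranks 11, 13, 29 and 59; open circles are their downstream regions, and squares are the strongest regions of 12 other sls-2 genes, of which the highest has a signal of 50.4.

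Between the weakest of the 4 and the strongest of the other sls-2 genes lay a step in pooled signal of 2.1 times. These were sls-2.8 at 105.6 and sls-2.16 at 50.4. The 4 were chosen by this same signal, so nothing is read from the step. Gene sls-2.16 lies inside glr-2, which encodes a glutamate receptor subunit. It ranked 450 in the pooled list, 649 in replicate 1 with a signal of 33.6, and 144 in replicate 3 with a signal of 19.7. It was the sole other sls-2 gene among the 857 strongest regions of both libraries. Gene sls-2.9 had a pooled signal of 44.4 at rank 587 and ranked 520 in replicate 1 and 1574 in replicate 3. Its strongest summits lay apart, at −102 bp in the pooled list, −20 bp in replicate 1 and −236 bp in replicate 3. The replicate 3 region near the replicate 1 summit, at −32 bp, ranked 24592. Gene sls-2.7 had 38.9 at rank 813, close to the threshold, and ranked 672 and 3838 in replicates 1 and 3. These 3 were thresholded. A further 9 genes had a candidate outside the thresholded list, at ranks 1975 to 14062 and signals of 11.8 to 26.6. From the highest to the lowest signal they were sls-2.15, sls-2.14, sls-2.18, sls-2.17, sls-2.6, sls-2.10, sls-2.13, sls-2.5 and sls-2.12. The summit assigned to sls-2.6 lay in the 5′ UTR exon of hgo-1, a homogentisate oxidase gene, 54 bp from its 5′ end. Gene sls-2.6 had no candidate in replicate 1 and rank 984 in replicate 3.

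The remaining sls-2 genes had no pooled candidate. Gene sls-2.11, inside the intraflagellar transport gene daf-10, had none in any list. Gene sls-2.3, at II:5544164-5544273 on the minus strand, had a region in replicate 3 alone, with a signal of 8.06 at rank 2234. This rests on assignment by summit. The thresholded downstream region of its neighbour sls-2.2, II:5543573-5543948, reaches within 250 bp of sls-2.3. Assignment by region overlap gave 13 other sls-2 genes with a pooled candidate, against 12, and 4 with a thresholded region, against 3. By chromosome, a thresholded region was found at 3 of 4 sls-2 genes on I, 2 of 3 on II, 2 of 6 on III and 0 of 5 on IV. These counts include the 4 genes chosen by signal, and those on II are sls-2.1 and sls-2.2, so no chromosome pattern is read from them. RefSeq also annotates a pseudogene, sls-2.19, on IV, which had no pooled region and rank 19648 in replicate 3. Over the 13 sls-2 genes with a candidate in both libraries, the ranks in replicates 1 and 3 had a Spearman correlation of 0.956. Without the 4 genes it was 0.883 over 9 genes. Genes with a candidate in a single library, sls-2.3, sls-2.6, sls-2.13 and sls-2.14, are left out of both values. At some genes the strongest regions of the libraries are also different sites. The summits lay at −18 bp in replicate 1 and +211 bp in replicate 3 at sls-2.5, and at +152 and −69 bp at sls-2.10. The points share the same libraries, and the values are a description.

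In sequence, sls-2.1, sls-2.2 and sls-2.4 form a close group that also holds sls-2.3. These 4 genes share 1 of the 11 leader types among the 18 genes, and sls-2.8 is the sole gene of its type. Over the RNA gene, identity to sls-2.1 was 92.7% for sls-2.2, 90.9% for sls-2.4 and 75.0% for sls-2.8, against 92.7% for sls-2.3 and a median of 74.5% over the other 14 genes. Over the block it was 86.7% for sls-2.2 and sls-2.4 and 56.7% for sls-2.8, against 86.7% for sls-2.3. By these measures sls-2.3, with no pooled summit within 250 bp, was as near to sls-2.1 as the highly ranked sls-2.2 was. The genes sls-2.2 and sls-2.3 were nearer still to each other, at 97.3% over the RNA gene. Gene sls-2.8 was about as near to sls-2.1 as the median of the other genes. The leader was read as ending at an AG directly before GT, the splice donor bases. All 18 genes therefore have GT there by definition, and the leader lengths and types rest on that rule. The letters ATTTTTG, a form of the Sm-binding site, occurred in 3 of the 4 genes, all but sls-2.2, and in 10 of the other 14.

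The block also holds short words that some of these genes share. The 2 words examined were chosen after the sequences were read, and were searched on both strands in the 120 bases upstream of 46886 annotated genes. The word CTTGCCTCG occurred at sls-2.1, sls-2.2 and sls-2.4, and at sls-2.3 among the other sls-2 genes, while 19 genes of all (0.0405%) had it. The word TCNGTACAC occurred at the same 3 genes, and at sls-2.9, sls-2.10 and sls-2.11 among the others, while 76 genes of all (0.162%) had it. The words do not overlap in the block. Neither occurred at sls-2.8. The counts over all genes include the sls-2 genes, and words read from these blocks were bound to occur at some of them. These are matches of letters and no measure of enrichment or binding.

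Base composition near the summit varied little among the 4 genes. Within 100 bp of the pooled summit, GC was 50.2% at sls-2.1, 48.3% at sls-2.2, 47.8% at sls-2.4 and 48.3% at sls-2.8. Over the 12 other sls-2 genes with a candidate it ran from 30.8% to 53.2% with a median of 36.8%. The 4 genes lay above all of these others except sls-2.9, which had 53.2%. The next highest of the others, sls-2.16, had 45.3%. Over the gene with 250 bp on either side the ranges were alike, at 37.2% to 41.9% for the 4 genes and 33.2% to 43.0% for all 14 others. Repeat-masked sequence within 100 bp of the summit took up 0% to 9.95% at the 4 genes and 5.97% to 52.7% at the 12 others. The summits of the 4 lie upstream and most of the others downstream, so these windows cover different parts of the genes. The part of GC or repeats in the signal was not tested.

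Near-identical copies can make reads hard to place, so the share of 36-base words found once in the genome was counted for each gene with 250 bp on either side. It was 89.2% at sls-2.1, 91.0% at sls-2.2, 96.9% at sls-2.4 and 100% at sls-2.8. Over the other 14 genes it ran from 63.3% to 100% with a median of 90.1%. Within the RNA gene alone the shares were lower, at 41.3% for sls-2.1, 53.3% for sls-2.2 and 78.7% for sls-2.4, and again 100% for sls-2.8. Gene sls-2.3 had the same shares as sls-2.1, 89.2% with its flanks and 41.3% within the gene. Reads from words that occur more than once could belong to another copy, so the signals at sls-2.1, sls-2.2 and sls-2.4 are uncertain to that extent. The part of repeated sequence in the signals was not tested. The sources used here do not give the read length or the handling of reads with several matches.

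**Figure D4:**
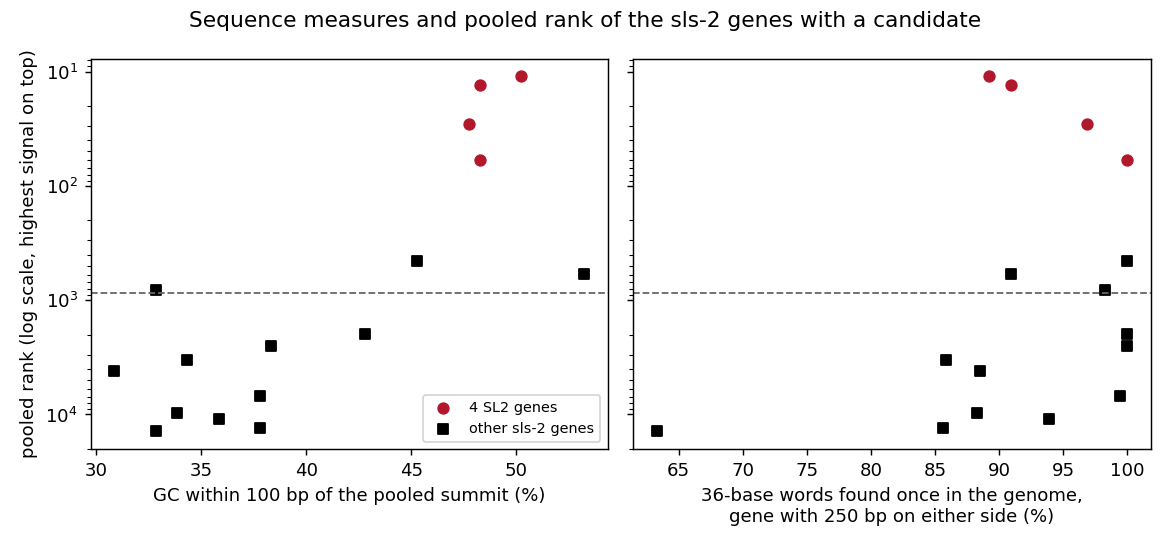
Pooled rank (log axis, highest signal on top) against GC within 100 bp of the pooled summit (left, %) and against the share of 36-base words found once in the genome over the gene with 250 bp on either side (right, %), for the 4 SL2 genes (circles) and 12 other sls-2 genes (squares). The 4 genes lie between 47.8% and 50.2% GC, above all the others except sls-2.9, and between 89.2% and 100% unique words. The dashed line is the end of the thresholded list.

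Outside the 4, no snRNA gene had a pooled rank of 59 or better. Of 26923 other noncoding genes 15 did, and of all 46926 genes 56 did, the 4 included. Rank 59 is that of sls-2.8, and the 4 were chosen by pooled rank, so nothing is read from this cut. The snRNA genes with ranks nearest to the medians of the 4, by Euclidean distance on log10 rank over the 3 lists, were taken from 20 genes with a candidate in every list. The nearest was R07E5.16 (WBGene00014543, III:10989679-10989780), with a pooled signal of 95.4 and ranks of 78 in the pooled list, 94 in replicate 1 and 38 in replicate 3. The next was sup-6 (II:12944803-12944967), with a signal of 99.1 and ranks of 70, 68 and 150 in the same order. F38E11.11 (IV:9444642-9444763) had a signal of 85.4 and ranks of 99, 105 and 192. All 3 ranked below the 4 SL2 genes in the pooled list and in replicate 1. In replicate 3, WBGene00014543 ranked above sls-2.8, which was at 59. Other gene IDs carry the symbol R07E5.16 too, among them WBGene00014484 at pooled rank 1494 and WBGene00235247 at pooled rank 4220. The genes of the SL1 leader, which is joined to most other trans-spliced messages, had no candidate at any of 12 annotated sls-1 genes. They lie in the repeated 5S ribosomal RNA array, and none of the 22 annotated rRNA genes had a candidate either. Whether reads could be placed there was not tested.

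A list of 35 genes whose products act on spliced leader RNAs or snRNAs was also examined, of which 32 are annotated. It holds SL-specific snRNP proteins (sna), Sm proteins (snr), SNAPc subunits (snpc), Integrator subunits (ints), cleavage factors (cpf), sut-1 and tbp-1. A candidate summit lay within 500 bp of the 5′ end of 24 of the 32, and of 7927 of all 19985 protein-coding genes (39.7%). A thresholded one lay there at 5 of the 32, and at 668 of all protein-coding genes (3.34%). These 5 were the Integrator subunit gene ints-4, the Sm protein genes snr-4 and snr-2, the 3′-end processing gene cpf-2 and sna-3. The Integrator complex cleaves the 3′ ends of snRNAs. At ints-4 the signal was 93.6 at pooled rank 79, with ranks of 130 in replicate 1 and 78 in replicate 3. At snr-4 it was 82.5 at rank 110, with ranks of 115 and 296, and the snRNA gene T11F9.15 lies within 250 bp of that summit. The other 3 had signals of 42.8 to 47.5 at pooled ranks 509 to 650. In replicate 3 cpf-2 ranked 3817, sna-3 1287 and snr-2 953, all outside its 857 strongest regions. Gene snpc-4, which encodes the DNA-binding SNAPc subunit, had a candidate at rank 5472 and no thresholded region. Genes sna-1 and sna-2, which encode proteins of the SL snRNPs, had candidates at ranks 18430 and 3263.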

How the data were processed

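Per the deposited file listings, the authors derived the candidate regions of each library, and of both pooled, from alignments and 1 control file, and thresholded the pooled regions by IDR. The sources used here do not give the aligner, caller, IDR settings or read length. Each deposited narrowPeak list gives a signal, an enrichment value per region from the authors' caller, and a −log10 q-value. Lists on ce11 were used. The ce10 lists served as an alternative, matched by chromosome, width and signal within 0.0001 of the value. A region was assigned to a gene when its summit lay in the gene or within 250 bp, with genes from Ensembl release 115 (WBcel235, the sequence of ce11) and sequence from RefSeq. Coordinates are 1-based. For protein-coding genes the reach was 500 bp from a transcript's 5′ end. The assignment was tested on simulated regions. Python 3.11.15 with numpy 2.4.6, pandas 2.3.3, scipy 1.17.1 and matplotlib 3.10.9 was used. The genes, lists and settings were chosen with earlier results of these data known. Named genes are the 4 genes, the other sls-2 genes, the nearest protein-coding gene to each of the 4, the 3 other snRNA genes of nearest ranks, and thresholded genes of the factor list; snpc-4, sna-1, sna-2, T11F9.15, the pseudogene sls-2.19 and the genes glr-2, hgo-1 and daf-10, which overlap other sls-2 genes, were added after their values were seen. No statistical test was run.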

Additional observations from a re-analysis of the deposited data

How the results depend on the processing

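No paired analysis was possible because the data hold 1 group. The 10 results were recomputed under 35 alternatives, of which 32 stayed within 1.5 times or 1 SD. The SD applies to the summit position and is 2.12 bp, taken from the medians of the 2 libraries. Leaving out a library returns the median of the other, so the SD is no independent yardstick for those alternatives. The 4 genes kept a candidate, a thresholded region and a place among the top regions of each library under all settings tried. Their choice by pooled signal and rank left little room for another outcome, so these counts are no measure of robustness. Many of the alternatives only recount these genes. The median summit position ran from −31.5 to −28.5 bp with either library left out. Restricting the thresholded list to its 428 strongest regions left 0 other sls-2 genes, against 3, since sls-2.16 ranks 450. Other sls-2 genes among the top regions of both libraries were 1 in the main setting, and 1 to 3 with a library left out, 3 being replicate 1 alone, since sls-2.7 and sls-2.9 are outside the top 857 of replicate 3. The factor genes with a thresholded region fell to 3 at a reach of 250 bp, against 5 at 500 bp, without snr-2 and snr-4. The ce10 thresholded list, added after seeing the data, holds 766 regions and lacks that of sls-2.7, which ranks 813. Depth is unknown, so counting error could not be given.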
